A study of Arabidopsis lyrata and Arabidopsis thaliana with 9 samples.

Results

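Cytokinins are plant hormones that promote cell division, and in the shoot they sustain meristems, the groups of dividing cells from which flowers form. The 9 genes described here cover the 2 ends of the cytokinin pathway: supply of the hormone and its perception. They were chosen by locus from the A. thaliana gene models, 9 of 27176. IPT1 (AT1G68460), IPT3 (AT3G63110), IPT5 (AT5G19040) and IPT7 (AT3G23630) make cytokinin. CKX3 (AT5G56970) and CKX5 (AT1G75450) break it down. AHK2 (AT5G35750), AHK3 (AT1G27320) and AHK4 (AT2G01830) perceive it. Every one of the 9 loci had a single counted model.

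The data were raw counts from 3 directional RNA-seq libraries of A. thaliana inflorescences, taken as total RNA from wild-type Col-0 plants after bolting, when the flowering stem had elongated. The plants were kept in a greenhouse under long days. The labels name 3 biological replicates and do not say which parts of the inflorescence, or how many plants, went into each. The A. lyrata leaf and inflorescence libraries of the same series number their genes in another way, so these genes are not described there. The design therefore gives no contrast for the 9 genes, and no test between conditions was made.

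The 3 libraries held 6263918, 14004158 and 6330211 counts. Floral organ identity genes (AP1, AP3, PI, AG and SEP3) were all present and summed to 938 to 961 CPM (counts set relative to the total of their library) over the libraries. Of 4 root genes, RHD6 and EXPA7 had no counts, WER was at 0.0770 ± 0.0800 CPM (SD, n = 3) and COBL9 at 6.09 ± 0.632 CPM. The 5 pollen genes listed differed most between libraries as sums, with 596, 831 and 398 CPM in libraries 1, 2 and 3. The 5 vascular genes summed to 206 to 221 CPM, and 4 meristem genes (STM, WUS, KNAT1 and LFY) to 128 to 147 CPM. Within the meristem sum LFY differed from the others, at 5.43, 2.07 and 2.05 CPM in libraries 1, 2 and 3. STM, WUS and KNAT1 were each lowest in library 1. Inflorescences are mixed tissue, so fewer cells of a type and less RNA per cell cannot be told apart in any value that follows.

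Cytokinin is made by adenylate isopentenyltransferases, the IPT enzymes, which attach an isoprenoid side chain to ADP or ATP. LOG enzymes then release the active base, and cytokinin oxidases, the CKX enzymes, cut the side chain off and end the signal. The receptors are membrane-bound histidine kinases. They pass a phosphate through AHP proteins to type-B response regulators, transcription factors whose early targets include the type-A response regulators, which dampen the pathway.

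Receptors and oxidases were detected at moderate levels in every library and the 4 synthesis genes were scarcely detected. Of the 9 genes, 5 had a mean of 10 CPM or more, against 48.4% of all models, and these were the 3 receptors and both oxidases. With IPT1 added, 6 had a mean of 1 CPM or more, against 68.6% of all models. Both counts were near the shares of all models. The 4 synthesis genes together had 15 counts in each of the 3 libraries. CPM is suited to comparing 1 gene between libraries. Levels of different genes are compared here as TPM, in which counts are divided by the exon length of the counted model before scaling. On that scale the receptors summed to 76.2 ± 1.20 TPM, the 2 oxidases to 38.7 ± 8.18 TPM and the 4 synthesis genes to 1.80 ± 0.690 TPM (SD, n = 3). The receptor sum was 34.5, 75.4 and 34.8 times the synthesis sum in libraries 1, 2 and 3, a ratio that rests on the few synthesis counts. The median of the 9 mean levels was 11.5 TPM, beside 9.55 TPM over the 26690 models with an annotated length. Of those models, 53.1% lay below CKX5, the lowest of the 5 receptors and oxidases, and 79.2% below AHK3, the highest.

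**Figure D1:**
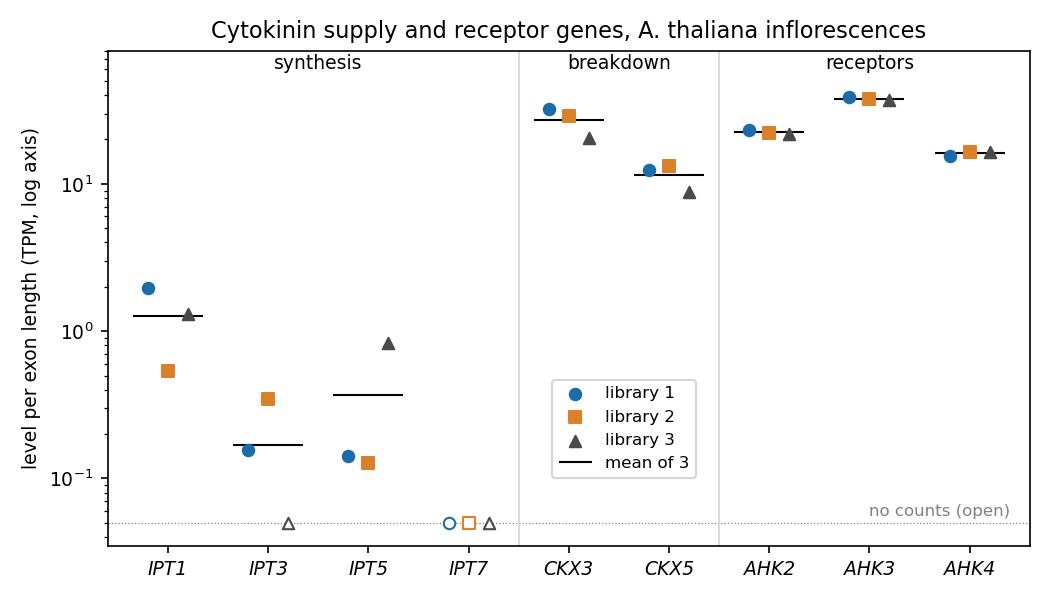
Level per exon length (TPM, log axis) of the 9 genes in each of the 3 A. thaliana inflorescence libraries, with the mean of 3 as a line and libraries without a count as open symbols on the dotted line. The 3 receptors and 2 oxidases lie between 8.81 and 38.9 TPM in every library, and all 4 synthesis genes lie below 2 TPM.

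IPT1 was the highest of the synthesis genes in libraries 1, 2 and 3 alike, and was still low. It had 13, 8 and 9 counts in libraries 1, 2 and 3, which is 2.08, 0.571 and 1.42 CPM. In library 2 its 95% exact counting interval, 0.247 to 1.13 CPM, overlapped that of IPT3, 0.116 to 0.833 CPM. In library 3 its interval, 0.650 to 2.70 CPM, overlapped that of IPT5, 0.348 to 2.06 CPM. For IPT1, library 1 was the highest and library 2 the lowest, although library 2 was the deepest. The ratio of library 1 to library 2 was 3.63, with a 95% exact counting interval of 1.40 to 10.1. That interval covers counting error only. The mean chi-square per model for these 2 libraries was 2.41, where counting alone gives 1, so an interval that allowed for this would be wider. Against library 3 the intervals of libraries 1 and 2 both included 1. The gene is a single exon on the minus strand of chromosome 1, at 25668610 to 25670345 in the TAIR10.1 build.

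IPT3, a gene known from vascular tissue, where it responds to nitrate, had 1, 5 and 0 counts in libraries 1, 2 and 3. That is 0.160, 0.357 and 0 CPM, with a 95% exact counting interval of 0.116 to 0.833 CPM in library 2. IPT5, known from root tips and lateral root primordia, had 1, 2 and 6 counts, or 0.160, 0.143 and 0.948 CPM, so most of its counts were in library 3. The means of 0.172 CPM for IPT3 and 0.417 CPM for IPT5 each rested on 1 library, since without library 2 the IPT3 mean was 0.0798 CPM and without library 3 the IPT5 mean was 0.151 CPM. IPT7, known from roots and phloem, had no counts in any library. Over the 26598287 counts its 95% exact counting interval reached up to 0.139 CPM. Of all models, 16.6% likewise had no count in the 3 libraries. IPT3 lies on chromosome 3 at 23317971 to 23319636 on the minus strand and IPT5 on chromosome 5 at 6361776 to 6363713 on the minus strand. IPT7 lies on chromosome 3 at 8488695 to 8490266 on the plus strand.

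The IPT family has 9 genes in A. thaliana, and 2 of the others were well above these 4. IPT2 and IPT9 act on transfer RNA, whose breakdown yields cis-zeatin, a less active cytokinin in many assays. They stood at 12.1 ± 0.977 TPM and 21.5 ± 1.83 TPM and held 94.8% ± 1.95 of the summed level of the family. IPT2 was singled out after its value was seen. IPT1, IPT3, IPT5 and IPT7 held 5.14% ± 2.12, with 6.90, 2.79 and 5.74% in libraries 1, 2 and 3. Of the remaining adenylate-type genes, IPT4 and IPT6 had no counts and IPT8 had 1. Among IPT1, IPT3, IPT5 and IPT7 themselves, IPT1 held 86.7, 52.9 and 61.2% of the summed level in libraries 1, 2 and 3. Below IPT1 no order held, since IPT3 was above IPT5 in library 2 and below it in library 3.

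**Figure D2:**
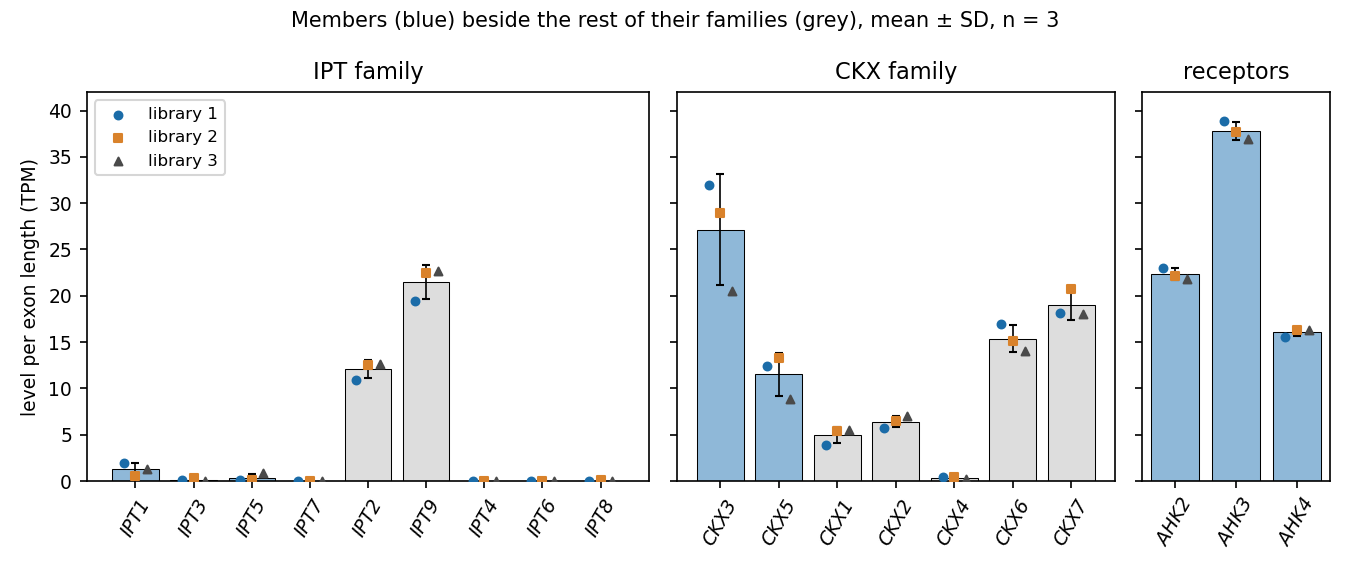
Level per exon length (TPM) of the whole IPT family, the whole CKX family and the 3 receptors, as means (bars) with SD over 3 libraries (whiskers) and each library as a symbol. IPT2 and IPT9 carry nearly all of the IPT level, while CKX3 has the highest mean of the CKX family and AHK3 of the receptors.

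Both oxidases were present in every library and lower in library 3. CKX3 and CKX5 limit cytokinin in the inflorescence, and plants without both are known to have larger inflorescence and floral meristems and more flowers. CKX3 stood at 33.8, 30.8 and 22.0 CPM in libraries 1, 2 and 3, from 212, 431 and 139 counts. CKX5 stood at 20.8, 22.1 and 14.8 CPM, from 130, 310 and 94 counts. For CKX3 the ratio to library 3 was 1.54 in library 1 (95% exact counting interval 1.24 to 1.92) and 1.40 in library 2 (1.16 to 1.71). For CKX5 it was 1.40 in library 1 (1.06 to 1.84) and 1.49 in library 2 (1.18 to 1.90). These intervals cover counting error only, and the libraries varied by more than that. The mean chi-square per model was 2.93 for libraries 1 and 3 and 3.47 for libraries 2 and 3, where counting alone gives 1. Intervals that allowed for this would be wider. Libraries 1 and 2 could not be separated by counting error for either gene, at ratios of 1.10 (0.929 to 1.30) for CKX3 and 0.938 (0.758 to 1.15) for CKX5. Without library 3 the means were 32.3 CPM for CKX3 and 21.4 CPM for CKX5, against 28.9 ± 6.17 and 19.2 ± 3.87 CPM with it. The pollen genes were also lowest in library 3, and their part in the oxidase values was not tested.

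Relative to each other the 2 oxidases kept a steady proportion. CKX5 held 28.1, 31.4 and 30.1% of their summed level in libraries 1, 2 and 3, so the lower values of library 3 left the proportion within the range of the other libraries. Among all 7 CKX genes, CKX3 was the highest at 27.1 ± 5.96 TPM, and CKX7 followed at 18.95 ± 1.53 TPM. Their ranges over the libraries just met, at 20.5 TPM for CKX3 in library 3 and 20.7 TPM for CKX7 in library 2. In library 3, CKX7 was at 23.1 CPM and CKX3 at 22.0 CPM. Their coding lengths were nearly equal, at 1575 and 1572 bases, so by coding length CKX3 was not the higher there. CKX5 was at 11.5 ± 2.37 TPM and CKX4 was the lowest at 0.371 ± 0.107 TPM. CKX3 and CKX5 together held 49.6, 46.7 and 39.5% of the family level in libraries 1, 2 and 3. CKX3 lies on chromosome 5 at 23044839 to 23048292 on the minus strand with 5 exons, and CKX5 on chromosome 1 at 28314458 to 28318362 on the minus strand with 5 exons. CKX5 overlaps AT1G75440 and a further gene on the opposite strand and 1 gene on its own strand. Whether counting used the strand is not given in the sources used here, so its level is less certain. The annotation also gives CKX5 the older name CKX6 and CKX7 the older name CKX5, and loci rather than names were used throughout.

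**Figure D3:**
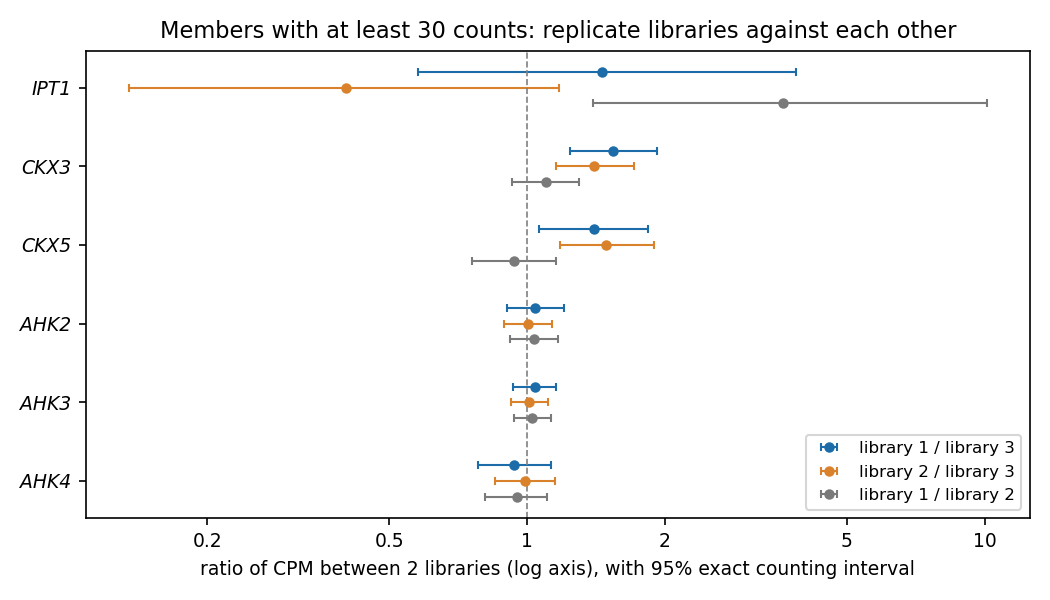
Ratio of CPM between each pair of replicate libraries (log axis) for the 6 genes with at least 30 counts, with 95% exact counting intervals as whiskers. For CKX3 and CKX5 both intervals against library 3 lie above 1, and for the 3 receptors all 9 intervals include 1. The intervals leave out variation between libraries beyond counting error.

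The 3 receptors varied little between libraries. AHK3, which has a leading part in leaf and shoot responses together with AHK2, stood at 108, 105 and 103 CPM in libraries 1, 2 and 3. AHK2 stood at 63.1, 60.8 and 60.5 CPM. AHK4, also called CRE1 or WOODEN LEG and best known from root vascular development, stood at 37.5, 39.6 and 39.97 CPM. AHK2 and AHK3 were highest in library 1, where AHK4 was lowest, and all these differences were small. The coefficient of variation was 2.01% for AHK3, 2.29% for AHK2 and 3.37% for AHK4. Counting alone would give 3.51, 4.59 and 5.77% in that order, so the spread of each receptor was below that of counting. CKX3 and CKX5 stood at 21.4 and 20.1%. The median was 6.67% over the 13159 models with a mean of 10 CPM or more and 8.55% over the 18654 models with 1 CPM or more. A spread below that of counting was not particular to the receptors. The type-B response regulator ARR1, for example, was at 2.68% where counting alone gives 4.65%. The further pathway gene APT1 was above counting, at 5.76% against 3.20%. How many of all models lay below counting was not computed.

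Per exon length AHK3 was the highest of the 9 genes, at 37.8 ± 0.993 TPM. AHK2 was at 22.3 ± 0.638 TPM and AHK4 at 16.1 ± 0.454 TPM. The order AHK3, AHK2, AHK4 held in each library without overlap. AHK3 held 49.6% ± 0.524 of the summed receptor level, AHK2 29.3% ± 0.397 and AHK4 21.1% ± 0.905. AHK3 lies on chromosome 1 at 9486889 to 9492632 on the plus strand with 11 exons and AHK2 on chromosome 5 at 13911283 to 13916805 on the minus strand with 13 exons. The counted model of AHK4 lies on chromosome 2 at 362983 to 368357 on the minus strand with 10 exons. AHK3 ranked 5542 among the 26690 models by mean TPM.

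In the order of all 9 genes by TPM, AHK3 came first, followed by CKX3, AHK2, AHK4, CKX5, IPT1, IPT5, IPT3 and IPT7. The ranges over the 3 libraries overlapped between CKX3 (20.5 to 32.0 TPM) and AHK2 (21.8 to 23.0 TPM), and between neighbours among the 4 synthesis genes. They did not overlap between AHK3 and CKX3, between AHK2 and AHK4, between AHK4 and CKX5 or between CKX5 and IPT1. Among neighbours that both had counts, the step from CKX5 to IPT1 was the widest, at 9.09-fold between means. When coding length was used in place of exon length, AHK4 (11.4 to 11.9 TPM) and CKX5 (8.84 to 13.4 TPM) overlapped as well.

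None of the 30-base stretches of any of the 9 transcripts occurred elsewhere in the TAIR10.1 genome, and the longest run shared by a pair of the transcripts was 21 bases, between AHK2 and AHK4. Read length is not given in the sources used here, and where CKX5 overlaps other genes on the chromosome, sequence alone does not assign a read.

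The 250 bases upstream of the annotated start are shown for the member with the highest level and the oxidase with the higher level, from TAIR10.1 on the strand of the gene. Capitals mark AGATT on either strand, a core motif bound by type-B response regulators. The sequences lie at chr1:9486639-9486888 on the plus strand for AHK3 and at chr5:23048293-23048542 on the minus strand for CKX3.
AHK3: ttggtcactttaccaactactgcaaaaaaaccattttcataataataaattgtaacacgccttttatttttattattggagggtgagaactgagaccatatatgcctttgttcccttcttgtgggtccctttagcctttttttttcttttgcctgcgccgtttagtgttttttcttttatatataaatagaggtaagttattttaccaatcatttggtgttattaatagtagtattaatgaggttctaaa
CKX3: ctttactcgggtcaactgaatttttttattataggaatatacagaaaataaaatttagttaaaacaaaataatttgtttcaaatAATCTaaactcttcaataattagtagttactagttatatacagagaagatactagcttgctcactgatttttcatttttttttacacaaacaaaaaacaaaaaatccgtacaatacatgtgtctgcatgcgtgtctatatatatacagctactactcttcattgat
AGATT occurred 1 time upstream of CKX3 and not upstream of AHK3. Of the 8 upstream windows examined, those of all members but IPT7, 2 had it, against 63.6% of 26689 windows of the same length. A CArG box, the motif bound by MADS-box factors such as SEP3, was in 0 of the 8 windows, against 2.55% of all windows. A match describes letters only, and factor binding was not measured in these files.

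The other pathway genes listed cover further IPT and CKX genes, the steps between supply and response, other histidine kinases and the response regulators. Of these 59 genes, 26 had a mean of 10 CPM or more, against 48.4% of all models, and 9 had no count, against 16.6%, so both counts were near those of all models. CYP735A1 and CYP735A2, which hydroxylate the side chain to give trans-zeatin types, were at 2.46 ± 0.417 and 2.16 ± 0.408 TPM. Of 8 LOG genes, LOG8 was the highest at 25.3 ± 2.80 TPM, 2 reached 10 CPM, and LOG2 and LOG6 had no counts. Of the transport genes, PUP14, a carrier that takes up cytokinin bases, was the highest at 38.6 ± 5.18 TPM, and AZG2 had no counts. PUP14 overlaps a gene on the opposite strand, so its level is less certain. APT1, which turns cytokinin bases back into nucleotides and also recycles adenine, was the highest of all 68 genes at 159 ± 8.42 TPM. UGT76C1, which glucosylates cytokinin bases, was the lowest of its group at 3.47 ± 0.0460 TPM. Its coefficient of variation was 1.79%, where counting alone would give 18.6% at 23, 53 and 24 counts. That SD therefore understates the uncertainty of the level.

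**Figure D4:**
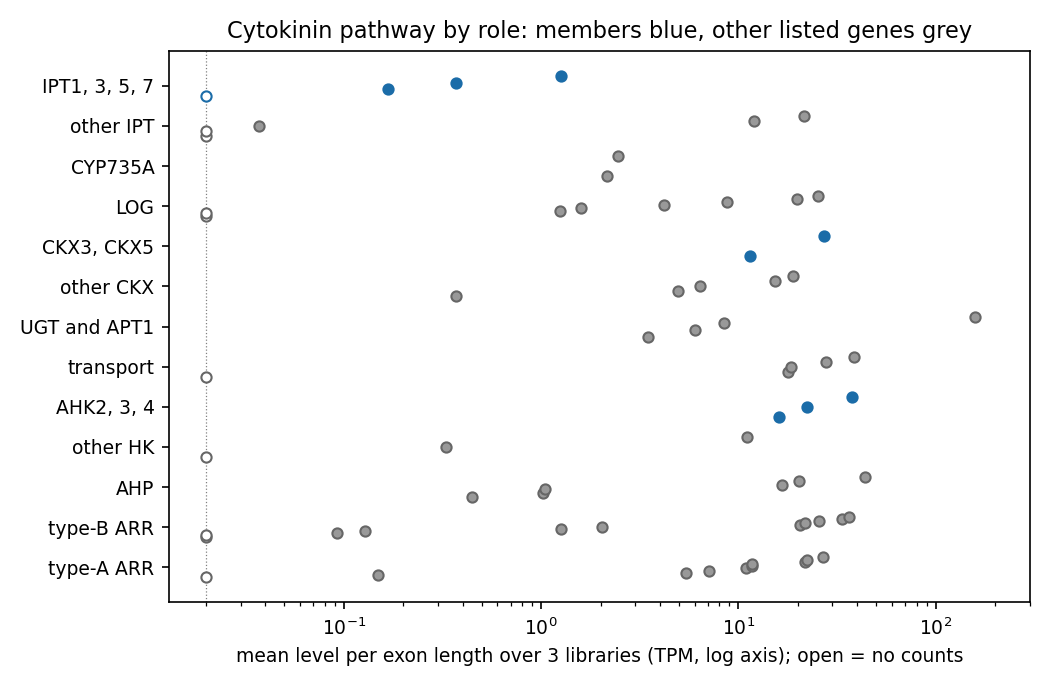
Mean level per exon length over 3 libraries (TPM, log axis) of the 68 cytokinin pathway genes by role, with the 9 described genes in blue, the others in grey and genes without a count as open circles. The synthesis genes IPT1, IPT3, IPT5 and IPT7 lie below 2 TPM, while receptors, phosphotransfer proteins and response regulators each include genes above 20 TPM.

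Downstream of the receptors, 3 of 6 AHP genes reached 10 CPM, a level that 48.4% of all models reached. AHP2, a phosphotransfer protein, was the highest at 43.8 ± 6.08 TPM, and AHP6, which lacks the phosphorylated histidine and inhibits the pathway, was the lowest at 0.444 ± 0.462 TPM. Of 11 type-B response regulators, 5 reached 10 CPM, led by ARR1 at 36.3 ± 1.21 TPM, and ARR13 and ARR19 had no counts. Of 10 type-A response regulators, 5 reached 10 CPM, led by ARR7 at 26.96 ± 3.42 TPM, and ARR17 had no counts. Among histidine kinases outside the cytokinin receptors, AHK1 was at 11.0 ± 1.39 TPM and AHK5 at 0.328 ± 0.306 TPM. CKI1, which acts in the female gametophyte without binding cytokinin, had no counts.

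Lower values in library 3 were not confined to the oxidases. UGT85A1, which glucosylates zeatin, stood at 14.7, 12.4 and 4.74 CPM in libraries 1, 2 and 3, and UGT76C2, which acts on cytokinin bases, at 7.98, 6.64 and 3.95 CPM. Both were singled out after their values were seen. Of the 39 further pathway genes at 1 CPM or more, 18 had their lowest value in library 3, as did 35.1% of all models at that level. Of the 9 genes described here it was 5, against 28.6% of all models, and for AHK2, AHK3 and IPT3 among them the difference was within counting error.

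The models whose TPM profile over the 3 libraries was nearest to that of AHK3 were TXR1, PI-4KBETA1 and XLG3, with root mean square differences of 0.0160, 0.0204 and 0.0223 in log2(TPM + 0.1). Of 8349 models compared, 633 lay within 0.2 of AHK3. The difference takes in the level as well as the profile, so these models had levels like that of AHK3 in the 3 libraries. For IPT1 the nearest were UGT71B8, NUC and RKD5, at 0.152, 0.188 and 0.228, with 2 models within 0.2. IPT1 had 13, 8 and 9 counts in libraries 1, 2 and 3, so its profile and these matches are limited by counting error. The number of models near it does not compare with that of AHK3.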

How the data were processed

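RNA was measured in 3 A. thaliana inflorescence libraries, grouped and numbered by the labels. The authors deposited raw counts, 1 table per library, of 27176 gene models. Per the submitters' processing notes the build is TAIR10. Aligner, counting tool and use of strand: not given in the sources used here. The labels' protocols name total RNA with DNA digestion and a directional library.

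The 9 genes and the 59 further pathway genes and markers were chosen with earlier results of these data known. CPM used raw library totals. TPM used exon lengths of the counted models in the RefSeq annotation of TAIR10.1, which gave 26690 of 27176 models a length, 25 of them from the longest transcript of the locus. The 9 loci and their names all matched. Counting intervals are exact Poisson for a level and exact binomial for a ratio of 2 libraries, at 95%. They cover counting error only. No test was made. Between pairs of libraries the mean chi-square per model was 2.41 to 3.47, above the value of 1 that sampling noise gives, so each library was counted as 1 sample. The labels do not say that replicates came from separate plants. The 9 genes were all named. Of the other pathway genes, the highest and lowest of each role by TPM were named, and all of a role with 3 or fewer. The profile comparison took the highest member and the lowest with at least 30 counts, with named models at 1 CPM or more. The ratio and spread calculations were tested on simulated data. Alternatives were TMM and RLE scaling (edgeR 4.0.16, R 4.3.3), other minimums, coding length, no length, another pseudocount and leaving out each library. Values were computed in Python 3.11.15 (pandas 2.3.3, scipy 1.17.1, numpy 2.4.6) and drawn with matplotlib 3.10.9.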

Additional observations from a re-analysis of the deposited data

How the results depend on the processing

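The count of 5 of the 9 genes at 10 CPM or more held under TMM and RLE scaling, minimums of 5 CPM and 10 TPM, and without each library. The pathway count stayed within 1.5 times of 26 (25 to 26 without each library). With coding length the receptor shares were 27.5% for AHK2, 53.5% for AHK3 and 19.0% for AHK4, and the CKX5 share of the 2 oxidases 39.3%. With counts not divided by length they were 29.9, 51.2, 18.97 and 40.1%, since CKX5 has the longer transcript. The median coefficient of variation of the 6 genes with at least 30 counts was 11.7%, 11.9% under TMM and under RLE, and 4.15 to 13.96% without each library, the lowest without library 3. For all models it was 10.6% with no minimum level, against 8.55%. The median log2 ratio of these 6 genes was 0.24 for library 1 over 3, 0.01 for library 2 over 3 and 0.05 for library 1 over 2. It was 0.27 with a pseudocount of 0.1 CPM in place of 0.5 for library 1 over 3. For library 2 over 3 it was 0.0238 under TMM and 0.0237 under RLE, and for library 1 over 2 it was 0.0376 and 0.0386. Without each library the IPT1 share of the 4 synthesis genes was 57.0 to 73.9%, the IPT3 share 3.47 to 20.7% and the IPT5 share 9.48 to 25.7%, so the IPT3 and IPT5 shares rest on single libraries, while IPT1 kept the highest share. Mean levels of IPT3 and IPT5 were 0.172 and 0.417 CPM. Without library 2 the IPT3 mean was 0.0798 CPM, without library 3 the IPT5 mean was 0.151 CPM, and without library 3 the IPT3 mean was 0.258 CPM. The ratio of receptor to synthesis sums and its alternatives were chosen after seeing the data, and it was 34.7 to 55.1 without each library and 39.1 with coding length, against 48.2. No model exceeded 1% of a library, so that alternative changed nothing. No paired analysis was possible because the genes are measured in 1 group and no test was made. Below about 30 counts, levels are limited by counting error.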
